A study of Mus musculus with 39 samples.

Results

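The enzymes described here make bile acids from cholesterol in the liver and are the products of 7 mouse genes: Cyp7a1, Cyp8b1, Akr1d1, Cyp27a1, Cyp7b1, Cyp39a1 and Baat. They were chosen by name from the 13840 genes that have a probe of their own on the Applied Biosystems Mouse Genome Survey array, and each is given by its probe with the highest mean signal. Cyp7a1 has 2 probes and the others 1 each. Livers of adult male mice on the 129SV background were profiled after 7 days of daily gavage, and 39 arrays in 10 groups were analysed. PPARα-null mice received water, PFOA (perfluorooctanoic acid, given as its ammonium salt) at 1 mg/kg, PFOA at 3 mg/kg, pirinixic acid at 50 mg/kg in 0.5% methylcellulose, or 0.5% methylcellulose alone. Wild-type mice received the same 5 treatments. Each group has 4 arrays except wild type with methylcellulose, which has 3. The null mice lack PPARα, a nuclear receptor for fatty acids, from the germ line rather than from hepatocytes alone, as far as the labels describe them. Pirinixic acid, which the labels and plots name by its Wyeth code, is a synthetic activator of that receptor. The series was set up to learn which liver responses to PFOA need PPARα, with pirinixic acid as the comparison compound. Its design text names 4 animals per group, but no label ties an array to an animal, so p-values measure the spread between these arrays.

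Bile acids are made in hepatocytes by 2 connected routes. In the classic route Cyp7a1 hydroxylates cholesterol in the first and rate-limiting step, Cyp8b1 adds the hydroxyl group that sends the product towards cholic acid, and Akr1d1 reduces a double bond of the sterol ring. In the alternative route Cyp27a1, in mitochondria, oxidises the side chain, while Cyp7b1 and Cyp39a1 hydroxylate oxysterols. Baat joins the finished acids to taurine or glycine. Bile acids hold back their own synthesis through the receptor Nr1h4 (FXR), which induces the repressor Nr0b2 (SHP), and through an intestinal hormone that acts on Fgfr4 and Klb at the hepatocyte. In mice Cyp8b1 is also a known target gene of PPARα.

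All values are log2 signals as the authors deposited them, with a median of 9.14 on every array. Differences were fitted with limma over all arrays, and "adjusted p" means the Benjamini-Hochberg value over the 25295 probes with a signal on every array. A gene is said to have risen or fallen only with an adjusted p under 0.05. Errors are SD for group means and standard errors (SE) for differences. Cyp7b1 lacked 3 values, so 6 of the 7 enzymes were tested. Across the tested probes arrays of the same group correlated at a median of 0.958 (0.928 to 0.974 over 57 pairs).

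Several facts about the arrays touch the values below. An array, replicate 3 of the wild-type group at 1 mg/kg PFOA, went against its label: Cox6b2, which separates the genotypes on all other arrays, was 9.06 there and between 16.4 and 17.0 on the other 3 arrays of that group. The arrays also fell into a set of 16 and a set of 23, told apart by 78 probes that include none of the enzymes. The 4 arrays of wild type with pirinixic acid all lie in the larger set, and each other group holds arrays of both. The sets go in part with the replicate numbers of the labels. All arrays of replicate 2 and nearly all of replicate 3 lie in the larger set, and most of replicates 1 and 4 in the smaller. Ppara itself was lower in null than in wild-type mice on water (-0.99, SE 0.21, limma adjusted p = 0.0488). Its probe still read 15.00 to 16.29 on the null arrays. No source used here places that probe inside or outside the deleted part, so it does not check the genotype. Over the 10 groups the 5 tested hepatocyte markers averaged 20.01 to 20.49 and the 5 ileal epithelium markers 10.50 to 10.85.

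PFOA given at 3 mg/kg changed 3 of the 6 tested enzymes in wild-type liver. Cyp39a1 fell 6.91-fold and Baat fell 1.69-fold, while Cyp8b1 rose 2.22-fold. Of all tested probes 5.82% changed in this comparison, 3.37% upward and 2.46% downward. The median difference was -0.61 over the 6 enzymes and -0.02 over all probes. Pirinixic acid in wild-type mice changed 1 of the 6, Baat, which fell 1.76-fold, where 6.1% of all probes changed (2.8% upward and 3.3% downward). The median there was -0.77 over the enzymes and -0.03 over all probes. In bulk liver a smaller share of hepatocytes and less RNA per hepatocyte cannot be told apart.

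None of the enzymes changed in the other 15 differences tested by limma without a replicate block. In wild-type mice given 1 mg/kg PFOA the test called 0.273% of all probes, and 2 of the 6 enzymes had an unadjusted p under 0.05, as did 2776 (11%) of all probes. In null mice 0.3% of probes changed at 3 mg/kg PFOA, 0.0119% at 1 mg/kg PFOA and 0.0% with pirinixic acid. There 1 enzyme, 0 enzymes and 0 enzymes had an unadjusted p under 0.05, beside 2111, 1003 and 691 of all probes. The medians over the enzymes in these null comparisons were -0.69, -0.22 and -0.12, and the medians over all probes were -0.03, -0.01 and 0.02.

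**Figure D1:**
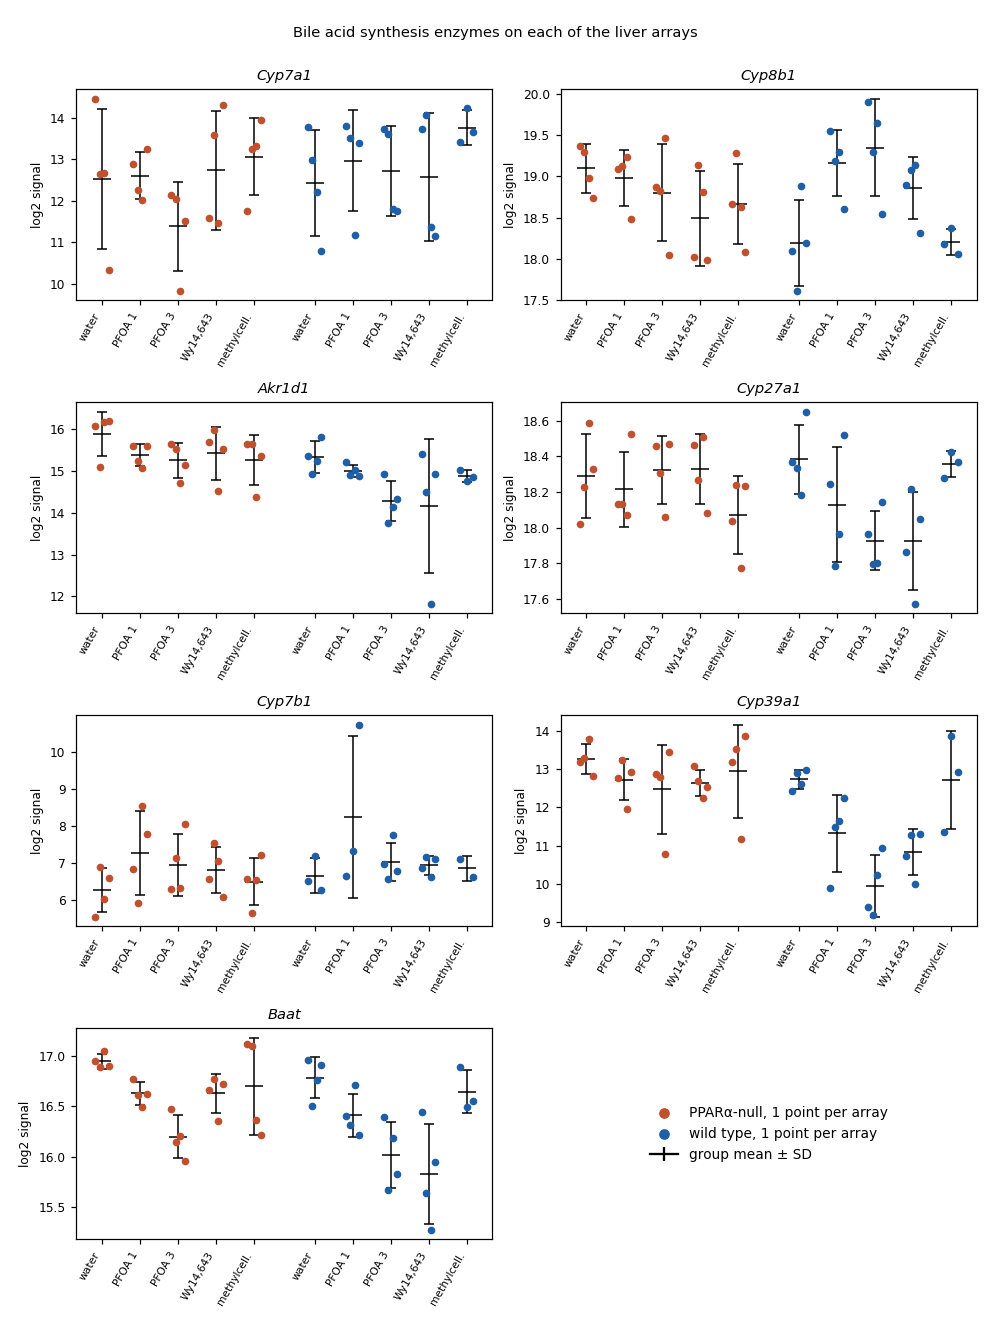
Log2 signal (vertical axes, each with its own range) of the 7 enzymes on every array, PPARα-null groups in red on the left and wild-type groups in blue on the right; PFOA doses are in mg/kg, and bars are the group mean ± SD. Cyp39a1 reaches its lowest group mean, 9.94, and Cyp8b1 its highest, 19.35, in wild type at 3 mg/kg PFOA, while the Cyp7a1 arrays of null mice on water alone run between 10.34 and 14.44.

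Cyp7a1, the rate-limiting enzyme of the classic route, varied more between arrays of the same group than between most groups. In wild-type mice its signals were 13.77, 12.98, 12.20 and 10.78 on water. They were 13.81, 13.50, 11.17 and 13.38 at 1 mg/kg PFOA and 13.72, 13.59, 11.80 and 11.74 at 3 mg/kg PFOA. Each of the 3 groups held arrays near 13.7 and arrays under 12, so the groups overlapped over most of their ranges. The difference at 3 mg/kg was 0.28 (SE 0.82, 95% interval -1.39 to 1.95, adjusted p = 0.907). The other Cyp7a1 probe gave -0.89 (SE 0.94, adjusted p = 0.682), a value of opposite sign but also within its error. Across the 39 arrays, with group means removed, the 2 probes correlated at r = 0.90.

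With pirinixic acid the wild-type values of Cyp7a1 were 13.73, 14.05, 11.36 and 11.14, against 13.40, 14.22 and 13.66 with methylcellulose. A pair of treated arrays lay more than 2 log2 units under all vehicle arrays and the other pair lay among them. The difference was -1.19 (SE 0.88, interval -2.99 to 0.61, adjusted p = 0.476). In null mice on water Cyp7a1 was 14.44, 12.63, 12.67 and 10.34. With PFOA 1 mg/kg it was 12.89, 12.26, 12.02 and 13.24 and at 3 mg/kg PFOA 12.15, 12.05, 9.83 and 11.51. The null group at 3 mg/kg had the lowest mean of all 10 groups, 11.38 ± 1.07 (n = 4), against 12.52 ± 1.68 (n = 4) on water. That difference, -1.14 (SE 0.82, interval -2.81 to 0.53, adjusted p = 0.77), did not exceed the spread between arrays. None of the 9 gaps between neighbouring group means of Cyp7a1 was larger than the SD of the groups beside it.

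Cyp8b1, which directs synthesis towards cholic acid, was the 1 enzyme of the 6 that rose. In wild-type mice on water it was 18.10, 17.61, 18.88 and 18.19. It was 19.55, 19.18, 19.30 and 18.60 at 1 mg/kg PFOA and 19.91, 19.29, 19.64 and 18.55 at 3 mg/kg PFOA. On 3 of the 4 arrays at each dose the signal was above every water array, and replicate 4 lay below the highest water array. At 3 mg/kg the rise was 1.15 (SE 0.32, adjusted p = 0.0279), and at 1 mg/kg the difference was 0.96 (SE 0.32, interval 0.31 to 1.62, adjusted p = 0.264). Of the 3 arrays above water at 1 mg/kg, replicate 3 is the array that goes against its label. Without it the difference at 1 mg/kg was 0.92 (SE 0.35, adjusted p = 0.313). The call at 3 mg/kg was lost without any of 6 single arrays (PFOA 3 mg/kg replicates 1, 2 and 3, water replicates 1, 2 and 4), with values of 0.96 to 1.17 and adjusted p up to 0.128. It was also lost in a fit of the compared groups only (adjusted p = 0.203), with a silent-gene index (the mean signal of probes for genes that liver does not use) as a covariate (1.05, adjusted p = 0.0753) and with array weights (0.95, adjusted p = 0.0807).

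The Cyp8b1 promoter is shown because this was the 1 tested enzyme that rose. It lies at chr9:121916306-121916555 on the minus strand of GRCm38.p6 and holds the 250 bases before the start of transcription in RefSeq's annotation. Capitals mark 3 motifs. CAAAGTCCA, a core of HNF4 sites, spans positions -67 to -59 from the start. CAAGGNCA, the motif of Nr5a2 (LRH-1), spans -60 to -53 and overlaps it. TATAAA spans -31 to -26.

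Cyp8b1: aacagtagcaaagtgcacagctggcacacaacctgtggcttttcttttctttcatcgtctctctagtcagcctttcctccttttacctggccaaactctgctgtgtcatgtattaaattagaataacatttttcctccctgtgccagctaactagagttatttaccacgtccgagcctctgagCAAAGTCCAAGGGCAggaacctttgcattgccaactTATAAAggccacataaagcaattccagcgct

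Both strands were searched. Of 32851 mouse promoter windows of the same length 0.384% hold CAAAGTCCA, 5.53% hold CAAGGNCA and 12.4% hold TATAAA. The motif that nuclear receptors share, AGGTCA, is held by 14% of windows and was not found in this one. Promoters were matched for 3 of the 7 genes. The Cyp8b1 window abuts the listed span of its gene. The Cyp27a1 window lies inside the listed span of its gene, and the Akr1d1 window overlaps that of its gene in part. That of Akr1d1 holds AGGTCA at -232 to -227 and at -210 to -205 on the opposite strand, and that of Cyp27a1 holds none of the 4 motifs. These matches describe letters and show no binding.

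With pirinixic acid Cyp8b1 was 18.90, 19.07, 19.14 and 18.31 in wild-type mice, against 18.18, 18.38 and 18.06 with methylcellulose. All but replicate 4 of the treated arrays lay above the vehicle range, and the difference was 0.65 (SE 0.35, interval -0.06 to 1.36, adjusted p = 0.287). In null mice Cyp8b1 was 19.37, 19.29, 18.98 and 18.74 on water, 19.09, 19.12, 19.24 and 18.49 at 1 mg/kg PFOA and 18.87, 18.82, 19.47 and 18.05 at 3 mg/kg PFOA. These null groups overlapped throughout. The null difference at 3 mg/kg was -0.29 (SE 0.32, interval -0.95 to 0.36), and the response of null minus that of wild-type mice was -1.44 (SE 0.45, interval -2.37 to -0.52, adjusted p = 0.189). That genotype difference did not pass the test, in a contrast where 0.415% of all probes did. It passed with the replicate number as a block (limma adjusted p = 0.0445), and in none of 17 fits that left out 1 array.

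The Cyp8b1 levels of null and wild-type mice on water were compared as well, and the difference did not pass the test. The null mean was 19.10 ± 0.29 (n = 4), against 18.20 ± 0.52 (n = 4) in wild-type mice, a difference of 0.90 (SE 0.32, interval 0.24 to 1.56, adjusted p = 0.397). On methylcellulose the means were 18.66 ± 0.49 (n = 4) in null and 18.21 ± 0.16 (n = 3) in wild-type mice, and the difference was 0.46 (SE 0.35, adjusted p = 0.634). In order of group means, wild type at 3 mg/kg PFOA (19.35) was followed by wild type at 1 mg/kg PFOA (19.16) and null with water (19.10). None of the 9 gaps between neighbours in the order of 10 groups exceeded the larger SD of the neighbours.

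Akr1d1, the reductase of the sterol ring, had lower signals in wild-type mice at the higher PFOA dose but did not pass the test. It was 15.36, 14.92, 15.24 and 15.82 on water, 15.21, 14.90, 15.02 and 14.88 at 1 mg/kg PFOA and 14.92, 13.76, 14.14 and 14.32 at 3 mg/kg PFOA. The highest array at 3 mg/kg met the lowest water array at 14.92. The difference at 3 mg/kg was -1.05 (SE 0.46, interval -1.98 to -0.12, adjusted p = 0.2). With pirinixic acid the values were 15.40, 14.50, 11.82 and 14.93, against 15.04, 14.75 and 14.86 with methylcellulose. The array at 11.82, replicate 3, was the lowest of all 39. The difference was -0.72 (SE 0.49, adjusted p = 0.434) with it and 0.06 (SE 0.36, interval -0.67 to 0.79) without it, so the value and its sign rest on that array. In null mice Akr1d1 averaged 15.88 ± 0.53 on water, 15.38 ± 0.27 at 1 mg/kg PFOA and 15.26 ± 0.42 at 3 mg/kg PFOA (n = 4 each), with a difference of -0.62 (SE 0.46, interval -1.56 to 0.31) at 3 mg/kg.

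Cyp27a1, the mitochondrial hydroxylase that opens the alternative route, moved least of the tested enzymes, with group means between 17.92 and 18.38. In wild-type mice it was 18.37, 18.33, 18.18 and 18.65 on water, 18.25, 17.78, 17.96 and 18.52 at 1 mg/kg PFOA and 17.96, 17.80, 17.80 and 18.14 at 3 mg/kg PFOA. All 4 arrays at 3 mg/kg lay below all 4 water arrays, and the difference of -0.46 (SE 0.17, interval -0.80 to -0.11) had an adjusted p of 0.114. With pirinixic acid the wild-type values were 17.86, 18.22, 17.57 and 18.05, against 18.28, 18.43 and 18.37 with methylcellulose. These groups did not overlap either, and the difference was -0.43 (SE 0.18, interval -0.80 to -0.06, adjusted p = 0.159). In null mice the value for PFOA 3 mg/kg was 0.03 (SE 0.17, interval -0.31 to 0.38) and that for pirinixic acid was 0.26 (SE 0.17, interval -0.08 to 0.60). The pirinixic acid response of null minus wild-type mice was 0.69 (SE 0.25, interval 0.19 to 1.20, adjusted p = 0.158).

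Cyp7b1, the oxysterol hydroxylase of the alternative route, could not be read on this array. Its probe averaged 6.93 over 36 arrays, and 0.524% of all probes had a lower mean. A set of 583 probes for genes that liver does not use averaged 8.68 to 9.23, above the Cyp7b1 average on every array. The highest Cyp7b1 value, 10.72, came from the array that goes against its label. With missing values left out array by array the wild-type difference at PFOA 3 mg/kg was 0.37 (SE 0.65, interval -0.96 to 1.70).

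Cyp39a1, which hydroxylates oxysterols, had the largest difference of the 6 tested enzymes in wild-type mice at 3 mg/kg PFOA. In wild-type mice it was 12.44, 12.90, 12.62 and 12.97 on water, 9.90, 11.49, 11.64 and 12.25 at 1 mg/kg PFOA and 9.41, 9.20, 10.22 and 10.95 at 3 mg/kg PFOA. All arrays of both dosed groups lay below the lowest water array. The difference at 3 mg/kg was -2.79 (SE 0.56, interval -3.94 to -1.64, adjusted p = 0.00189). It held in all 9 fits that left out 1 array, with values of -3.12 to -2.54. At 1 mg/kg the difference was -1.41 (SE 0.56, interval -2.56 to -0.26, adjusted p = 0.356), and between 3 and 1 mg/kg it was -1.38 (SE 0.56, adjusted p = 0.553). Without replicate 3 at 1 mg/kg, which goes against its label, these were -1.52 (SE 0.62, adjusted p = 0.35) and -1.27 (SE 0.62).

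With pirinixic acid Cyp39a1 was 10.73, 11.29, 10.01 and 11.30 in wild-type mice, against 11.35, 13.87 and 12.93 with methylcellulose. The treated arrays were all below the vehicle arrays, of which replicate 1 lay 0.05 above the highest treated array. The difference of -1.89 (SE 0.61, interval -3.13 to -0.65) had an adjusted p of 0.0589. Without methylcellulose replicate 1 it was -2.57 with an adjusted p of 0.0237, which rests on 2 vehicle arrays. In null mice Cyp39a1 was 13.19, 13.30, 13.78 and 12.82 on water, 12.77, 13.25, 11.97 and 12.93 at 1 mg/kg PFOA and 12.88, 12.81, 10.79 and 13.44 at 3 mg/kg PFOA. Replicate 3 was the lowest array of both dosed groups, and the null groups overlapped. The null difference at 3 mg/kg was -0.79 (SE 0.56, interval -1.94 to 0.36), and the null minus wild-type response was 2.0 (SE 0.80, interval 0.37 to 3.62, adjusted p = 0.339).

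Baat, the enzyme of conjugation, fell in wild-type mice with both compounds. It was 16.96, 16.50, 16.76 and 16.90 on water, 16.40, 16.31, 16.71 and 16.21 at 1 mg/kg PFOA and 16.39, 15.68, 16.18 and 15.83 at 3 mg/kg PFOA. The 3 mg/kg and water arrays did not overlap, and the difference was -0.76 (SE 0.21, adjusted p = 0.0251). With pirinixic acid it was 16.45, 15.64, 15.28 and 15.95, against 16.89, 16.50 and 16.55 with methylcellulose. All treated arrays were below all vehicle arrays, and the difference was -0.82 (SE 0.23, adjusted p = 0.0266).

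Each of these calls on Baat rests on single arrays. That for PFOA was lost without PFOA 3 mg/kg replicate 2 or 4 or water replicate 1, 3 or 4, with values of -0.77 to -0.65 and adjusted p up to 0.107. That for pirinixic acid was lost without pirinixic acid replicate 2 or 3 or methylcellulose replicate 1 or 3, with values of -0.86 to -0.63 and adjusted p up to 0.136. In a fit of the compared groups only both calls were lost (adjusted p = 0.164 for PFOA and 0.261 for pirinixic acid), and with the silent-gene index that for pirinixic acid was lost (-0.72, adjusted p = 0.0621).

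The Baat values of null mice with PFOA were close to those of wild-type mice. They were 16.95, 16.89, 17.05 and 16.90 on water, 16.77, 16.61, 16.50 and 16.62 at 1 mg/kg PFOA and 16.48, 16.15, 16.21 and 15.96 at 3 mg/kg PFOA. All 8 dosed arrays lay below all 4 water arrays. The difference at 3 mg/kg was -0.75 (SE 0.21, interval -1.17 to -0.32), as large as in wild-type mice. Its adjusted p was 0.164, in a comparison where 0.3% of all probes passed. The response of null minus that of wild-type mice was 0.01 (SE 0.30, interval -0.59 to 0.62). For pirinixic acid the null difference was -0.07 (SE 0.21, interval -0.50 to 0.35), and the null minus wild-type response was 0.74 (SE 0.31, interval 0.12 to 1.37, adjusted p = 0.231).

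**Figure D2:**
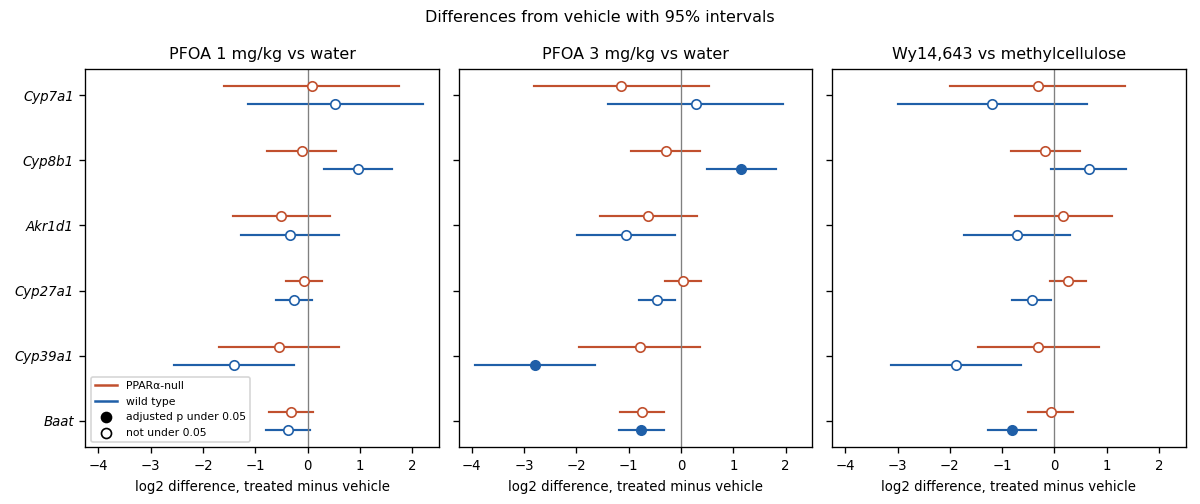
Log2 difference between treated and vehicle mice (horizontal axes) for the 6 tested enzymes, PPARα-null in red above wild type in blue, with 95% intervals; filled points have an adjusted p under 0.05. Filled points are Cyp39a1, Baat and Cyp8b1 in wild type at 3 mg/kg PFOA and Baat in wild type with pirinixic acid, and the Baat points of both genotypes at PFOA 3 mg/kg lie at -0.75 and -0.76.

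The 3 genotype contrasts called none of the enzymes in the fit without a replicate block. The PFOA 1 mg/kg contrast changed 0.0% of all probes (1274 with an unadjusted p under 0.05) and the pirinixic acid contrast 1.24%. The unadjusted p was under 0.05 for 1 of the 6 enzymes at PFOA 1 mg/kg (Cyp8b1), beside 5.04% of all probes. It was so for 3 at PFOA 3 mg/kg (Cyp8b1, Cyp39a1 and Cyp27a1), beside 10.7%, and for 2 with pirinixic acid (Cyp27a1 and Baat), beside 15.1%. Between PFOA 3 and 1 mg/kg 0.0277% of probes changed in wild-type and 0.00791% in null mice. Setting the PFOA 3 mg/kg response against the pirinixic acid response changed 0.0119% of probes in wild-type and 0.0474% in null mice. In wild type that contrast was 0.05 (SE 0.31, interval -0.57 to 0.68) for Baat, -0.90 (SE 0.83, interval -2.59 to 0.79) for Cyp39a1 and 0.50 (SE 0.47, interval -0.46 to 1.47) for Cyp8b1. The vehicles differ between these responses, and doses of unlike compounds are not matched.

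Between genotypes and between vehicles no enzyme passed the test. Null against wild-type mice differed at 0.127% of probes on water and 0.186% on methylcellulose. Methylcellulose against water changed 0.0% of probes in both genotypes, with 2191 in wild-type and 2931 in null mice at an unadjusted p under 0.05. The widest of these values was for Cyp7a1, 1.33 (SE 0.88, interval -0.47 to 3.13) between methylcellulose and water in wild-type mice.

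The array sets were present on both sides of the wild-type PFOA comparison, 2 arrays of each group in each set. Within the smaller set the 3 mg/kg differences were -2.53 for Cyp39a1, -0.82 for Baat and 1.08 for Cyp8b1, and within the larger set -3.05, -0.70 and 1.22 in the same order of genes. For pirinixic acid the larger set alone, with 4 treated and 2 vehicle arrays, gave -0.69 for Baat and -2.57 for Cyp39a1. In null mice Baat at 3 mg/kg differed by -0.74 in the smaller and -0.71 in the larger set.

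Markers of hepatocytes, Kupffer cells and cholangiocytes also moved in these groups. Those of liver endothelial cells (9 tested), stellate cells (7) and red blood cells (3) are not described here. For null mice only the hepatocyte markers are given. The 5 hepatocyte markers averaged 20.01 (19.83 to 20.12) in wild type at 3 mg/kg PFOA and 20.46 (20.39 to 20.55) with water, and 2 of them fell. With pirinixic acid they averaged 20.17 (19.93 to 20.38) in wild type, against 20.49 (20.29 to 20.64) with methylcellulose, and 1 fell. In null mice they averaged 20.26 (20.13 to 20.38) at 3 mg/kg PFOA and 20.49 (20.46 to 20.55) with water, and none passed. The 9 Kupffer cell markers averaged 12.25 (12.05 to 12.53) in wild type at 3 mg/kg PFOA and 12.71 (12.59 to 12.88) with water, and 1 fell. They averaged 12.37 (12.26 to 12.48) with pirinixic acid and 12.90 (12.81 to 13.07) with methylcellulose, and 4 fell. The 5 cholangiocyte markers averaged 10.67 (10.46 to 10.80) in wild type at 3 mg/kg PFOA and 9.57 (9.45 to 9.81) with water, and 10.72 (10.48 to 11.13) with pirinixic acid and 9.61 (9.20 to 9.91) with methylcellulose. A single gene of the 5, the keratin Krt23, passed, rising by 6.0 (SE 0.72) with PFOA and by 4.22 (SE 0.78) with pirinixic acid, while Krt19, Krt7, Epcam and Sox9 did not pass. Of all probes 3.37% rose and 2.46% fell in wild type at 3 mg/kg PFOA, and 2.8% rose and 3.3% fell with pirinixic acid. In null mice at 3 mg/kg PFOA 0.3% changed. The part of the markers in the enzymes' changes was not tested.

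Clock genes varied strongly between arrays of the same group. Dbp, an output gene of the circadian clock, spanned 11.47 to 18 over the 39 arrays, and Arntl (BMAL1), a core activator that peaks at another time of day, spanned 7.11 to 13.59. The sources used here do not state at what hour livers were collected. A clock index, the log2 signal of Arntl minus that of Dbp, was formed after these values were seen. Its group means ran from -9.03 in wild type with methylcellulose to -1.82 in null mice on water. Among 13 tested clock genes Per1 fell with pirinixic acid in wild type (-1.88, limma adjusted p = 0.0398), where 3.3% of all probes fell. That call was lost in 6 of 7 fits that left out 1 array. Replicate 3 had the highest clock index of its group in all water and PFOA groups and in null mice with pirinixic acid. It was 2.11 in wild type on water, but -10.33, the lowest of its group, in wild type with methylcellulose. The permutations below shuffled arrays inside each group separately. They did not keep same-numbered arrays together, so their p-values may be too small.

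Cyp7a1, whose transcript is known to cycle daily in rodents, moved with this index inside the groups. With group means removed, r was -0.61 over the 39 arrays (permutation p = 0.00061, adjusted over 14 relations p = 0.00213) and Spearman's rho was -0.65 (permutation p = 0.00029, adjusted p = 0.00135). Without the 2 farthest arrays r was -0.65, and within the array sets it was -0.43 in the smaller and -0.78 in the larger. Cyp8b1 moved the other way, with r = 0.48 (permutation p = 0.011, adjusted p = 0.0256) and rho = 0.49 (permutation p = 0.00742, adjusted p = 0.0173). Without the 2 farthest arrays its r was 0.40, and within the sets it was 0.33 and 0.52. The relations of Akr1d1, Baat, Cyp27a1 and Cyp39a1 with the index had r between -0.16 and 0.27 and did not pass.

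**Figure D3:**
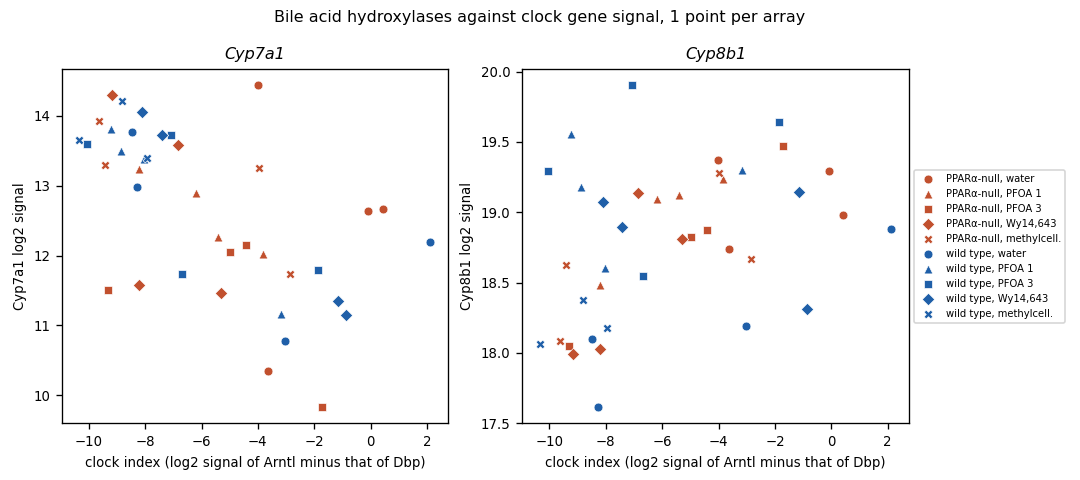
Log2 signal of Cyp7a1 (left) and Cyp8b1 (right) against the clock index, the log2 signal of Arntl minus that of Dbp, with 1 point for each of the 39 arrays, PPARα-null in red and wild type in blue, and a marker shape for each treatment. Cyp7a1 signals are lower on arrays with a higher index, while Cyp8b1 signals are higher, and water groups reach the highest index values.

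Nr0b2 (SHP), the repressor that bile acids induce through Nr1h4, followed the same axis. It correlated at r = 0.62 with the clock index (permutation p = 9e-05, adjusted p = 0.00063; rho = 0.70, permutation p = 1e-05, the lowest value 100000 permutations allow). Without the 2 farthest arrays that r was 0.58, and within the sets it was 0.53 and 0.75. Against Cyp7a1 its r was -0.46 (permutation p = 0.00419, adjusted p = 0.0117; rho = -0.54, permutation p = 0.0018), -0.58 without the 2 farthest arrays and -0.34 and -0.71 within the sets. Against Cyp8b1 it was 0.58 (permutation p = 0.00058, adjusted p = 0.00213; rho = 0.60, permutation p = 0.00054), 0.50 without the 2 farthest and 0.60 and 0.40 within the sets. Against Cyp39a1 its r was -0.34 (permutation p = 0.0178, adjusted p = 0.0355), while rho, -0.37, had an adjusted permutation p of 0.0602. Against Cyp27a1 r was -0.35 (permutation p = 0.0434, adjusted p = 0.076), against Akr1d1 -0.24 and against Baat 0.08, and these did not pass. All of these are relations between arrays, which share their RNA extraction and normalisation.

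With the clock index as a covariate the wild-type PFOA 3 mg/kg values were 1.29 (SE 0.29, adjusted p = 0.00565) for Cyp8b1, -2.80 (SE 0.58, adjusted p = 0.00249) for Cyp39a1 and -0.71 (SE 0.21, adjusted p = 0.0344) for Baat. Cyp7a1 was -0.19 (SE 0.67, interval -1.55 to 1.17) in wild-type mice. In wild type the index itself averaged -4.39 with pirinixic acid, -9.03 with methylcellulose and -4.42 on water. The covariate can therefore take up part of a difference between these groups. Of the wild-type pirinixic acid values 2 were nearer to 0 with the covariate. They were -0.10 (SE 0.76) for Cyp7a1, against -1.19 without it, and 0.32 (SE 0.33) for Cyp8b1, against 0.65. That of Baat ran from -0.93 to -0.72 over the 10 alternatives that kept all compared arrays, this covariate among them. The Cyp7a1 value between methylcellulose and water in wild type was 0.24 (SE 0.76) with the covariate and 1.33 without it. In null mice at 3 mg/kg PFOA Cyp7a1 was -1.91 (SE 0.68, interval -3.30 to -0.52, adjusted p = 0.374). Cyp8b1 at 1 mg/kg PFOA in wild type was 1.17 (SE 0.30, adjusted p = 0.0861).

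Other enzymes of the pathway rose and fell in wild-type mice. Of 13 tested, 3 rose and 1 fell at 3 mg/kg PFOA, and the median difference was 0.13. Of all tested probes 3.37% rose and 2.46% fell at that dose, and 2.8% rose and 3.3% fell with pirinixic acid. Acot8, a peroxisomal thioesterase that can act on bile acid thioesters, rose by 1.93 (SE 0.29, adjusted p = 5.2e-05), and Abcd3, a peroxisomal importer of their precursors, rose by 1.99 (SE 0.51, adjusted p = 0.0161). Slc27a2, which activates very long-chain fatty acids and bile acid precursors, rose by 0.85 (SE 0.25, adjusted p = 0.0368). Cyp2c70, the mouse enzyme that makes muricholic acids, fell by 2.08 (SE 0.36, adjusted p = 0.00035). The Slc27a2 call was lost without any 1 of the 8 compared arrays and that of Abcd3 without PFOA replicate 4. Pirinixic acid also raised 3 and lowered 1 of the 13: Acot8 rose by 1.37 (SE 0.31), Amacr, a racemase of the side chain, by 0.80 (SE 0.21) and Acox2, its oxidase, by 0.67 (SE 0.16), and Cyp2c70 fell by 1.44 (SE 0.39). Cyp2c70 was 15.13 on treated replicate 3, and without that array its difference was -0.78 and its call was lost, as it was without methylcellulose replicate 1 or 3. The call of Amacr was lost without treated replicate 2 or 3 or methylcellulose replicate 3, and that of Acox2 without methylcellulose replicate 2. None of the 13 passed in null mice, where the test called at most 0.3% of all probes in a treated group. Slc27a5, the main bile acid-CoA ligase, and Hsd3b7, which acts after Cyp7a1, passed in no treated group.

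Among 13 tested regulators of bile acid synthesis 3 fell and none rose at 3 mg/kg PFOA in wild-type mice, with a median of -0.21. Of all probes 2.46% fell and 3.37% rose there. The 3 regulators were Fgfr4, the hepatic receptor of the intestinal hormone (-0.63, SE 0.18, adjusted p = 0.0289), the coactivator Ppargc1a (-1.11, SE 0.32, adjusted p = 0.0341) and Mafg, a repressor induced by FXR in mice (-0.42, SE 0.12, adjusted p = 0.0302). With single arrays left out 0 to 2 of the regulators fell: the calls of Fgfr4 and Ppargc1a were lost in 6 of 8 such fits and that of Mafg in 4. None of the 13 passed with pirinixic acid in wild type, where 6.1% of probes changed, or in null mice, where at most 0.3% did. Nr0b2 averaged 14.35 ± 1.14 in wild type at 3 mg/kg PFOA and 15.12 ± 0.99 with water (n = 4 each).

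Transporters that carry bile acids and sterols across the hepatocyte membrane changed alongside. Of 9 tested, 1 rose and 3 fell at 3 mg/kg PFOA in wild-type mice (median -0.49), and 2 fell with pirinixic acid (median -0.61). Over all probes 3.37% rose and 2.46% fell with that PFOA dose, and 3.3% fell with pirinixic acid. Slc10a1 (NTCP), the sodium-linked uptake carrier of conjugated bile acids, fell by 0.82 (SE 0.22) with PFOA and fell by 0.83 (SE 0.23) with pirinixic acid. The organic anion carrier Slco1a1 fell by 1.35 (SE 0.33) with PFOA and fell by 2.79 (SE 0.35) with pirinixic acid, and Slco1a4 fell by 3.54 (SE 0.61) with PFOA. Abcb4, the phospholipid exporter of the canalicular membrane, rose by 1.11 (SE 0.25) with PFOA. The PFOA call of Slc10a1 was lost without PFOA replicate 2 or 3 or water replicate 4, and that of Slco1a1 without PFOA replicate 3. With pirinixic acid the Slc10a1 call was lost without methylcellulose replicate 2 or 3, and without treated replicate 3, where its difference was -0.50. The bile salt export pump Abcb11 passed in no treated group. None of the 9 passed in null mice, where at most 0.3% of all probes did in a treated group.

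**Figure D4:**
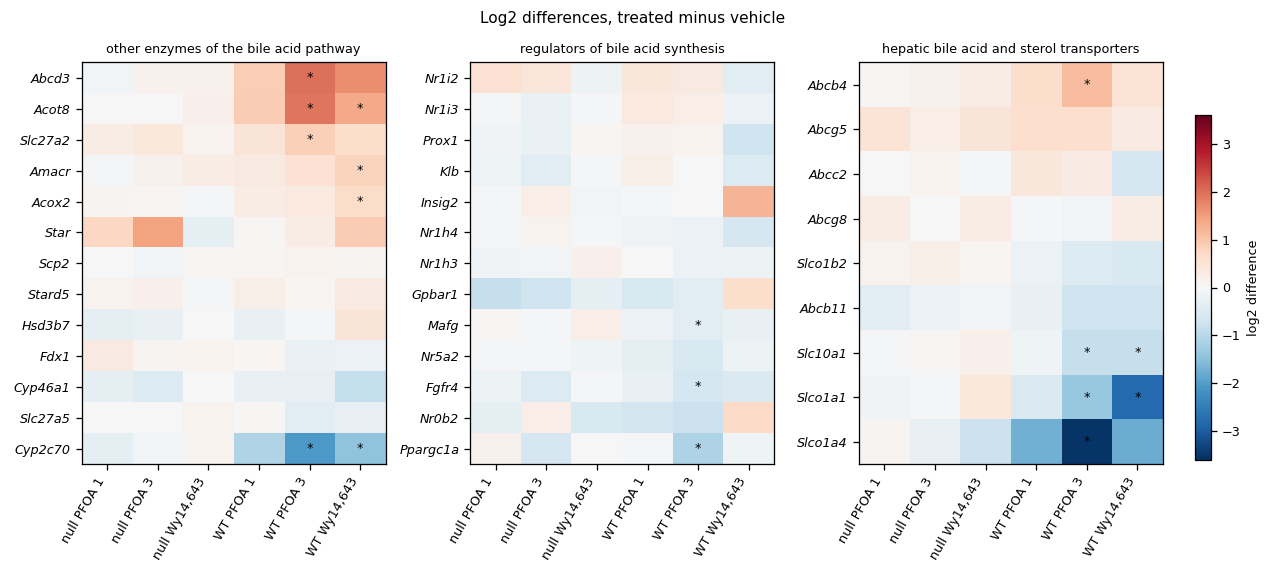
Log2 difference, treated minus vehicle (colour), for the tested genes of 3 lists, other pathway enzymes, regulators and transporters, in the 6 treated groups; an asterisk marks an adjusted p under 0.05, and the PFOA columns give the dose in mg/kg. Asterisks stand in the columns of wild type at 3 mg/kg PFOA and wild type with pirinixic acid, where Slco1a4 (-3.54) has the deepest fall.

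Known target genes of PPARα rose in the same livers. All 11 tested targets rose in wild-type mice at 3 mg/kg PFOA (10 or 11 with single arrays left out) and 7 with pirinixic acid (3 to 7). Of all probes 3.37% and 2.8% rose in these comparisons. In null mice none of the 11 passed at 3 mg/kg PFOA or with pirinixic acid. The test called 0.3% and 0.0% of all probes there, so a count of 0 shows little. At 1 mg/kg PFOA 5 of the 11 rose in wild type, where the test called 0.273% of all probes. Without replicate 3, the array that goes against its label, 8 rose. The targets averaged 13.91 on that array. Of 9 genes known as male-biased in mouse liver 5 fell at 3 mg/kg PFOA (3 to 5 with single arrays left out) and 5 with pirinixic acid (4 to 6) in wild-type mice. Of 7 periportal hepatocyte genes 2 fell with each of these treatments (1 to 3 and 1 to 2). Of 9 tested pericentral genes 0 changed at 3 mg/kg PFOA (0 to 1) and 1 fell with pirinixic acid (0 to 2). Beside these counts, 2.46% of all probes fell at 3 mg/kg PFOA and 3.3% with pirinixic acid. Slco1a1 stands in both the male-biased and the transporter list.

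Over the 10 group means several of the enzymes ran in parallel. Akr1d1 and Cyp39a1 correlated at 0.88, Akr1d1 and Baat at 0.87 and Baat and Cyp39a1 at 0.85. With group means removed, over 39 arrays, the Akr1d1 and Baat pair kept 0.71, while Baat and Cyp39a1 had 0.03. Cyp8b1 ran against Cyp27a1 at -0.63 over group means and at -0.38 over arrays. Cyp7a1 stood apart, with correlations of -0.24 to 0.27 to the others over group means. These are descriptions, since all groups share 1 normalisation and control arrays.

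Other genes were ranked by their likeness to each enzyme over the 10 group means, among about 1640 abundant genes whose means spanned at least 1 log2 unit. Closest to Cyp39a1 were AI182371 (r = 0.99), Gulo (0.98) and Cdo1 (0.98). Closest to Baat were Tat (0.98), Igfals (0.97) and Osgin1 (0.96), and closest to Akr1d1 were Hal (0.98), Ass1 (0.98) and F7 (0.97). Cyp27a1 was nearest to Car3 (0.92), Cyp2c70 (0.92) and Pde4b (0.90). For Cyp8b1 the nearest were Gpat3 (0.90), Mmp19 (0.89) and Mapre3 (0.89), and for Cyp7a1 they were Nampt (0.94), Tbc1d16 (0.89) and Adh7 (0.89). Over the 39 single arrays these correlations were lower, from 0.40 for Tbc1d16 to 0.86 for Ass1. The first-named gene of each enzyme had 0.70 (AI182371), 0.81 (Tat), 0.79 (Hal), 0.70 (Car3), 0.41 (Gpat3) and 0.59 (Nampt).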

How the data were processed

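The authors hybridised digoxigenin-labelled cRNA from liver RNA, per the labels' protocols, and deposited 1 table of log2 signals for 33012 probes on 39 arrays. The labels do not write the log base; a span of 4.85 to 21.5 fits base 2. The arrays have equal medians, and no source used here describes how they were normalised. No normalisation was added. The platform's probe annotation names 1 gene for 14411 probes, several for 247 and none for 18354. Of all values 1.15% were missing.

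The fit used limma 3.58.1 (R 4.3.3), with 1 mean per group over all arrays (29 residual and 2.51 prior degrees of freedom), with 17 two-sided contrasts adjusted over 25295 probes. The silent-gene index is each array's mean over 583 probes of receptor and keratin-associated genes not used in liver. Array number limits the precision. The 7 enzymes and all gene lists were chosen with earlier results of these data known. All 7 are named whatever their values, though not each with its value in every comparison. Of each list the named genes are up to 4 with the smallest adjusted p and those at its extremes. For each enzyme the 3 most alike genes are named. The fit was tested on simulated data.

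Alternatives were a replicate block, array set as a block, the silent-gene index, the compared groups only, missing values allowed, a filter on dim probes, array weights, a robust trend, median centring, single arrays left out and the other Cyp7a1 probe. The clock index and the leaving out of single arrays for the other gene lists were added after seeing the data. Promoters are RefSeq's for GRCm38.p6.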

Additional observations from a re-analysis of the deposited data

Results flagged for a closer look

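Of 61 sets of an enzyme in a group of 4 arrays, 3 held an array far from the rest by Dixon's test, which chance gives in about 1 of 20 sets. Akr1d1 was 15.09 in null mice on water, replicate 2, where the other 3 arrays lay between 16.07 and 16.19. Cyp27a1 was 18.53 in null mice with PFOA 1 mg/kg, replicate 4, against 18.07 to 18.13 on the others. Cyp7a1 was 11.17 on wild-type replicate 3 at 1 mg/kg PFOA, against 13.38 to 13.81. This is the array whose genotype markers go against its label. Without it the wild-type PFOA 1 mg/kg difference of Cyp7a1 was 1.13 (SE 0.85, limma adjusted p = 0.703). With all arrays kept, the chosen probe averaged 12.96 in that group and 12.43 on water. The other Cyp7a1 probe went the other way, with 11.54 in that group and 12.38 on water.

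The pirinixic acid response of Cyp27a1 differed between genotypes in sign. All 4 treated null arrays lay above their vehicle mean and all 4 treated wild-type arrays below theirs, and the response of null minus that of wild-type mice was 0.69 (SE 0.25). In the limma fit that difference had an adjusted p of 0.158 and did not pass.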

How the results depend on the processing

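The count of changed enzymes in wild type with PFOA 3 mg/kg, 3 of 6, was 1 with the compared groups only and 1 to 3 when single arrays were left out. For wild type with pirinixic acid the count of 1 was 0 with the silent-gene index or the compared groups only, 2 with the filter on dim probes or array weights, 3 with the replicate block, and 0 to 1 when single arrays were left out. With the replicate block Cyp39a1 (-2.04, adjusted p = 0.0212) and Cyp8b1 (0.82, adjusted p = 0.0481) joined Baat, and the genotype difference at PFOA 3 mg/kg called 1 enzyme in place of 0, Cyp8b1 (-1.44, adjusted p = 0.0445). Same-numbered arrays of different groups correlated in their deviations at a median of 0.101 (171 pairs, 50.3% above 0.1). Differently numbered ones did so at -0.04 (513 pairs, 17.9% above 0.1), so arrays with the same number were more alike in the median. The numbers also go in part with the array sets, and the arrays of replicate 2 all lie in the larger set. No label says what a number shares, so the main fit does not use the numbers. Calls that change with the replicate block are left undecided. The main count was 0 in the other 15 comparisons and stayed 0 in every alternative run for 14 of them, where a count of 0 of 6 cannot fall and shows little. The cause of these moves was not tested. No called value turned its sign. The filter on dim probes adjusts over fewer probes, and the compared groups only leaves fewer arrays to estimate the spread. Cyp7b1 lies below the signal of silent genes, which is the limit for that enzyme.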
